A study of Mus musculus with 6 samples.

Results

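The angiopoietin and Tie receptor genes are described here over 10 retinal cell types and 2 genotypes. The group was set by name and holds 5 of the 20822 genes measured. They are the ligands Angpt1 and Angpt2, the receptors Tek (also called Tie2) and Tie1, and Ptprb, the endothelial receptor phosphatase VE-PTP. All 5 were present in the count table.

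Tek is a receptor tyrosine kinase of endothelial cells (ECs). Angpt1, made mainly by the mural cells that wrap vessels, activates it and keeps vessels quiet and tight, whereas Angpt2, made by ECs themselves, can compete with Angpt1 and is known for its rise in sprouting and remodelling vessels. Tie1 binds no angiopoietin with high affinity and modulates Tek from within the same membrane, and Ptprb removes phosphate from Tek and is linked to VE-cadherin at junctions. In the retina, tip cells at the front of growing vessels are a well known source of Angpt2.

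Retinas came from eNOS+/+ mice (C57BL/6J) and from eNOS-/- mice, which are homozygous for a knockout allele of Nos3, the gene of endothelial nitric oxide synthase, and were backcrossed to C57BL/6J. Pups of both genotypes had oxygen-induced retinopathy (OIR), in which high oxygen prunes the young vessels and the return to room air is followed by regrowth, and were sampled at postnatal day 14. The knockout is in all cells. Each genotype had 3 Drop-seq libraries, each pooled from 3 to 5 retinas and enriched for CD31+ cells with antibody-coated beads, so a replicate is a pool and no library had retinas without OIR. Drop-seq counts unique molecular identifiers (UMIs) from the 3' end of transcripts.

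Angpt1 (ENSMUSG00000022309) lies on chromosome 15 of GRCm38 from 42424723 to 42676977 on the minus strand. Angpt2 (ENSMUSG00000031465) lies on chromosome 8 from 18690263 to 18741562 on the minus strand, inside Mcph1 on the other strand, with no shared exon. Tek (ENSMUSG00000006386) and Tie1 (ENSMUSG00000033191) both lie on chromosome 4. Tek runs from 94739289 to 94874976 on the plus strand and Tie1 from 118471191 to 118490061 on the minus strand. Ptprb (ENSMUSG00000020154) lies on chromosome 10 from 116275523 to 116389535 on the plus strand. All 5 are annotated as protein-coding genes. Exons of Angpt1 overlap those of an antisense gene that was not in the count table.

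Promoters were at hand for 2 of the 5 genes, Tek and Tie1, which are related receptors of the same cells. These promoters are shown side by side, from 250 bases before to 50 bases after the start of transcription. They are written 5′ to 3′, as RefSeq gives them on GRCm38.p6. No link between these sequences and the level of either gene was tested. Capitals mark GGAAG, a longer form of the ETS core GGAA, and the GATA motif AGATAA. Both were searched on both strands, and no such match overlapped another. The Tek promoter is chr4:94739039-94739338 on the plus strand and the Tie1 promoter is chr4:118489800-118490099 on the minus strand. The Tie1 window is set around a RefSeq start at 118489849, which lies 212 bases inside the gene as given above, and the start of Tek is the same in both annotations.
Tek: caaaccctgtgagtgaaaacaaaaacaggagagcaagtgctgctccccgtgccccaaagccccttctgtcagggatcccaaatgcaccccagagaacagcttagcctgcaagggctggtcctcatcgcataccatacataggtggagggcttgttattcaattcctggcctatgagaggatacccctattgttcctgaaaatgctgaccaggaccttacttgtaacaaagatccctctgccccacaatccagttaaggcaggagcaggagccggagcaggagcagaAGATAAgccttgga
Tie1: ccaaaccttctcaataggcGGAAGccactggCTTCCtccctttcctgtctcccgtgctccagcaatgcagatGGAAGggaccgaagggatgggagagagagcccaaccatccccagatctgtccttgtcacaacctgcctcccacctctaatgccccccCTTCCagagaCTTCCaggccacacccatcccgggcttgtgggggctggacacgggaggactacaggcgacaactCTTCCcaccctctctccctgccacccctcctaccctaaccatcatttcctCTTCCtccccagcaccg
The Tie1 window held GGAAG 2 times on its own strand and 5 times on the other. The Tek window held GGAAG on neither strand, where 71.4% of 32851 promoters of the same length held it. The shorter core GGAA was not counted, and its reverse form TTCC is in the Tek window in small letters. The Tek window held AGATAA 1 time, 36 bases after the start, and the Tie1 window held none, where 11.2% of promoters did. The hypoxia response core ACGTG, in 19.6% of promoters, and the forkhead core TGTTTAC, in 3.65%, were in neither window.

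The files held 8944 cells and 10361314 UMIs, with 415 to 3710 cells and 617246 to 3350799 UMIs per library. The 613 cells of eNOS+/+ replicate 2 carry the name of eNOS+/+ replicate 1 in 1 column of the cell table, and the replicate column was followed. No barcode was shared between libraries of the same genotype and 3 were shared between genotypes. Cells of a library with the same first 11 of 12 barcode bases are called a barcode family here. There were 830 families of several cells, and keeping only the deepest cell of each family left out 2044 cells. Whether such barcodes stand for separate cells was not tested. Nos3 did not separate the genotypes. Its level in all ECs was 19.4, 36.6 and 23.6 UMIs per 1000000 (CPM) in the eNOS+/+ libraries and 21.2, 16.1 and 32.8 in the eNOS-/- libraries. Where the allele is disrupted was not given in the sources used here, and a 3' count outside that part checks no label. ECs made up 5925 cells in the deposited cell types, split into 1428 Tip, 3335 Structural (annotated only as ECs) and 1162 Proliferative ECs. These are 2121 eNOS+/+ and 3804 eNOS-/- ECs, and the EC numbers in the paper's methods are lower for both genotypes. The summed level of 9 EC markers (among them Pecam1, Cdh5 and Cldn5) was 9256 CPM in Tip, 7973 in Structural and 6901 in Proliferative ECs, against 1859 in mural cells. The cell types were clustered from these same UMIs, so levels are compared between types with no test. In bulk sums of this kind, fewer cells with a transcript and less transcript per cell cannot be told apart without the shares of cells that follow.

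Angpt2 was seen mostly in Tip ECs. The study's text counts Angpt2 among the genes that mark its Tip EC cluster, so its rank there goes with the label and is a description, from which nothing is read. Of its 1366 UMIs, 71.3% came from Tip ECs, which gave 21.6% of all UMIs. Its level in Tip ECs was 332, 491 and 221 CPM in eNOS+/+ replicates 1 to 3 and 451, 629 and 203 CPM in eNOS-/- replicates 1 to 3 (388 ± 166, SD, n = 6). Replicate 2 of each genotype was high and replicate 3 of each was low, and the genotypes overlapped. In Structural ECs the Angpt2 level was 110, 85.0 and 17.6 CPM in the eNOS+/+ libraries and 69.8, 40.2 and 67.3 CPM in the eNOS-/- libraries (mean 65.0 ± 32.5, SD, n = 6). In Proliferative ECs it was 0, 49.5 and 27.6 CPM in the eNOS+/+ libraries and 23.9, 79.4 and 12.8 CPM in the eNOS-/- libraries (mean 32.2 ± 28.4, SD, n = 6). Tip ECs were above Structural ECs in 6 of 6 libraries, by 3.02-fold to 15.6-fold, and their ranges did not overlap. An order of Tip above Structural in all 6 libraries was seen for 8.57% of the 6264 genes with at least 200 EC UMIs, and ranges that did not overlap for 2.51%. Tip ECs were also above Proliferative ECs in 6 of 6 libraries, as were 10.8% of genes, and without overlap, as were 3.05%.

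**Figure D1:**
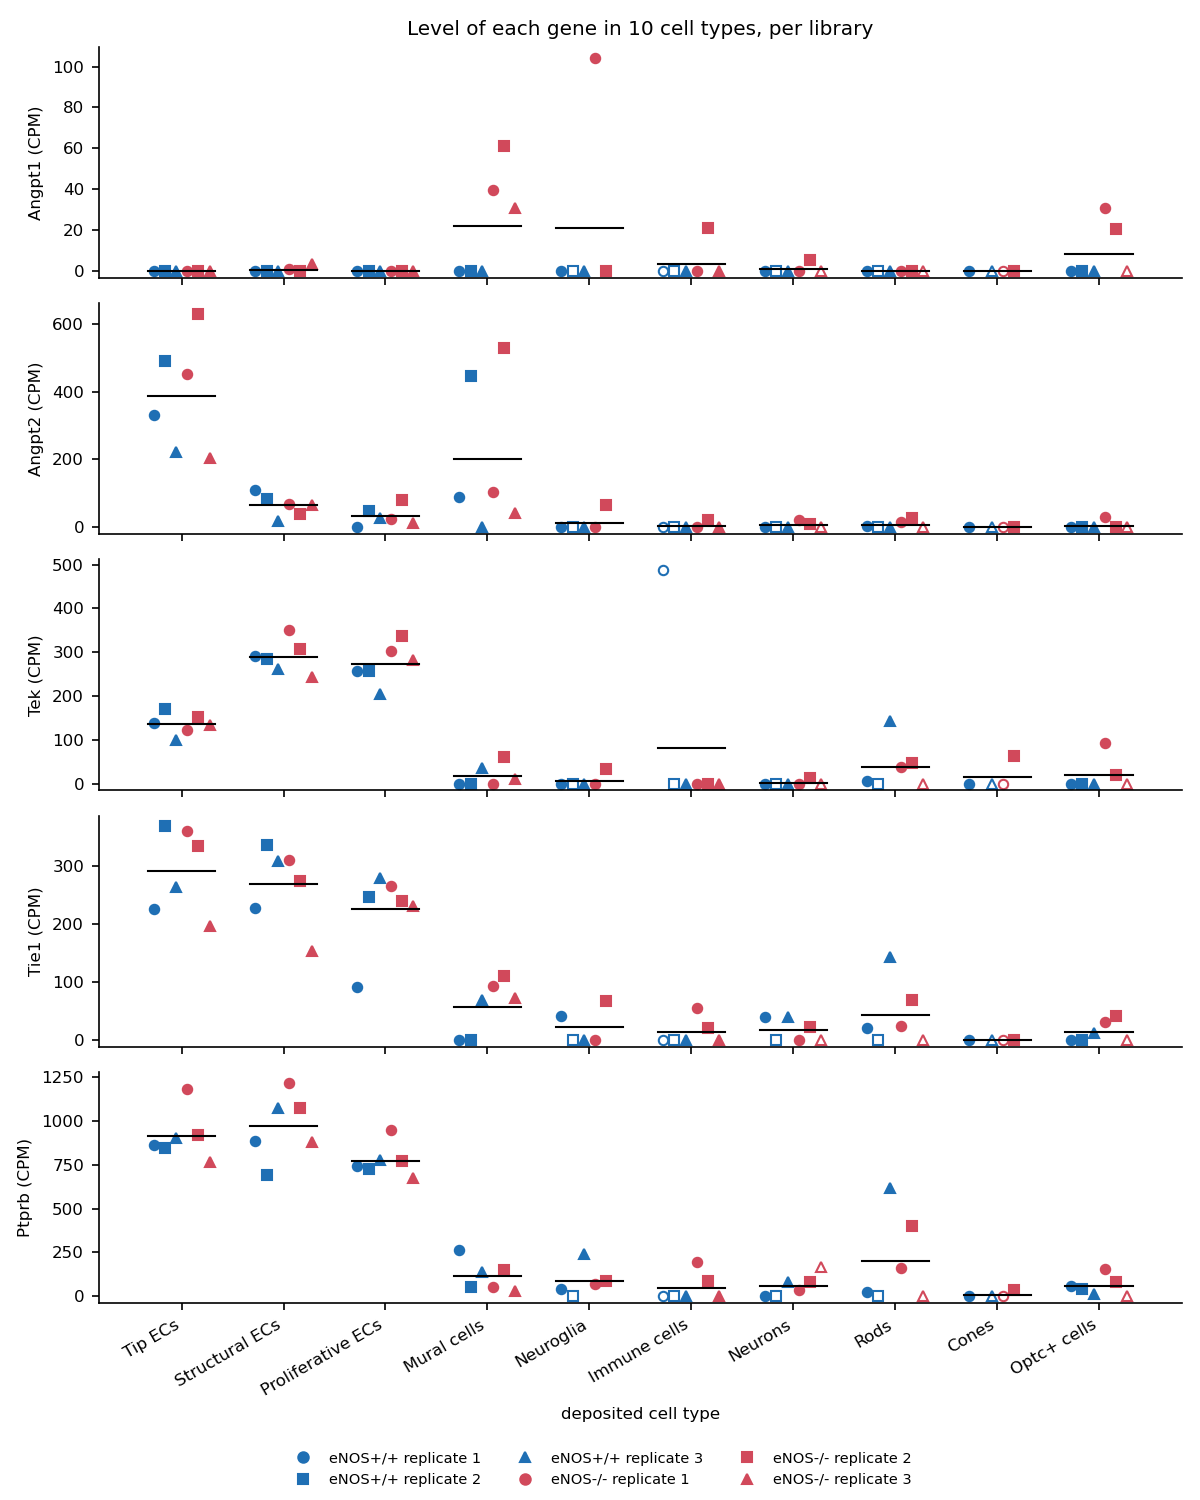
Level of Angpt1, Angpt2, Tek, Tie1 and Ptprb (y axis, CPM of summed UMIs, each panel with its own scale) in 10 deposited cell types (x axis). Each point is a library, open where the sum held under 10000 UMIs, and the line is the mean over libraries. Angpt2 stands out in Tip ECs with a mean of 388 CPM and is uneven in mural cells, Tek is lower in Tip than in the other ECs, and the few Angpt1 counts are in eNOS-/- libraries.

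Angpt2 was found in a minority of Tip ECs. A UMI was seen in 369 of 1428 Tip ECs (25.8%, 95% Wilson interval 23.6 to 28.2, median depth 1007 UMIs), in 103 of 3335 Structural ECs (3.09%, 2.55 to 3.73, median 491) and in 49 of 1162 Proliferative ECs (4.22%, 3.20 to 5.53, median 963.5). Rods, which should lack Angpt2, had a UMI in 9 of 1508 cells (0.597%, median 361). These intervals cover counting error only and take each barcode as a separate cell. With 1 cell per barcode family, 1026 Tip, 2554 Structural and 836 Proliferative ECs were left. When each cell was drawn down to 500 UMIs, and shallower cells were left out (337 Tip, 1688 Structural and 355 Proliferative ECs, 1087 rods), the share was 14.5% in Tip, 1.98% in Structural, 1.63% in Proliferative ECs and 0.458% in rods. Of the positive Tip ECs, 202 held 1 UMI, 64 held 2 and 103 held 3 or more, and the highest cell held 36.

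Mural cells were the other place where Angpt2 was seen, but unevenly. Mural cells (pericytes and smooth muscle) gave 4.76% of its UMIs. The Angpt2 level in mural cells was 88.3, 447 and 0 CPM in the eNOS+/+ libraries and 105, 527 and 41.5 CPM in the eNOS-/- libraries (202 ± 226, SD, n = 6). Replicate 2 was again the highest of each genotype, as in Tip ECs. Tip ECs were above mural cells within each of the 6 libraries, but in 5 of 6 when only cells of at least 500 UMIs or 1 cell per barcode family were summed, and the ranges overlapped. The level came from few cells. A UMI was seen in 27 of 214 mural cells, and 1 cell of eNOS-/- replicate 2 held 22 of the 65 UMIs. Without it the mean was 160 ± 170 CPM (SD, n = 6), an alternative chosen after the counts were seen.

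The mural cells with and without Angpt2 were compared for the mural markers, first pooled over libraries. Acta2, the smooth muscle actin, was at 2645 CPM in mural cells with Angpt2 and at 1102 CPM in those without, and Myh11, the smooth muscle myosin heavy chain, was at 571 and 86.7 CPM. Kcnj8, a potassium channel gene of pericytes, was at 418 and 999 CPM. The libraries took unequal parts, since eNOS-/- replicate 2 gave 41514 of the 71830 UMIs of cells with Angpt2 and eNOS-/- replicate 3 gave 87487 of the 242334 UMIs of cells without. The 5 libraries that had both kinds were then compared one by one, an analysis chosen after the pooled values were seen. Acta2 was higher in cells with Angpt2 in 4 of 5, Myh11 in 2 of 5, and Kcnj8 was lower in 4 of 5. Of the other mural markers, Des was higher in 4 of 5 and Pdgfrb lower in 3 of 5. Rgs5, Abcc9 and Vtn were higher in 2 and lower in 3, and Cspg4 and Notch3 higher in 2 and lower in 2. In eNOS+/+ replicate 1, 1 cell was set against 2 without any mural marker UMI, so no mural marker could be lower there. Of the 9 EC markers, 7 were higher and 2 lower in the pooled cells with Angpt2, with Flt1 at 613 and 289 CPM and Esam at 139 and 252 CPM. Within the 5 libraries they were mixed. Flt1, Pecam1 and Cldn5 were each higher in 4 of 5, and Cdh5 was lower in 4 of 5. Esam and Emcn were lower in 3 of 5 and Egfl7 higher in 3 of 5. Kdr was higher in 2 and lower in 2, and Erg higher in 2 and lower in 1. The part of EC transcripts in the Angpt2 counts was not tested.

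The mural type of eNOS+/+ replicate 1 held only 3 cells, and 2 of them, with 8020 of its 11323 UMIs, held no mural marker UMI and 4988 CPM of EC markers. With mural cells that held at least 1 mural marker UMI, the Angpt2 level of this library was 303 CPM in place of 88.3, and the mean was 239 ± 223 CPM (SD, n = 6).

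Angpt1, the activating ligand, was close to the limit of detection. Only 21 UMIs were counted, in 12 cells, and 11 of them were in 5 mural cells. The remaining 10 were spread over neuroglia (3 in 1 cell), Structural ECs, neurons and Optc+ cells (2 each) and immune cells (1). Tip ECs, Proliferative ECs, rods and cones held none. All 21 UMIs were in eNOS-/- libraries. In mural cells the count was 3, 5 and 3 UMIs in the eNOS-/- libraries (39.5, 61.3 and 31.1 CPM) and 0 in each of the 3 eNOS+/+ libraries. The eNOS+/+ mural cells were fewer and shallower, with 74 cells and 60288 UMIs against 140 cells and 253876 UMIs. The pooled level was 43.3 CPM in eNOS-/- mural cells (exact Poisson interval 21.6 to 77.5, counting error only), and 0 of 60288 UMIs allows up to 49.8 CPM in eNOS+/+ mural cells, taking 3 UMIs as the limit. A genotype difference in mural Angpt1 was therefore not detectable at this depth. Over all cells the level was 3.13 CPM in eNOS-/- (exact Poisson interval 1.94 to 4.78) and 0 of 3646825 UMIs in eNOS+/+, which allows up to 0.823 CPM by the same limit, but the 21 UMIs fell in only 12 cells and the types made up different parts of each library, so this compares these libraries and not the genotypes. The summed level of 10 mural markers was also lower in eNOS+/+ mural cells, at 11128 (the library of 3 cells) to 16627 CPM, than in eNOS-/- mural cells, at 27292 to 27455 CPM, and its part in the Angpt1 counts was not tested.

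Among ECs, Tek, the receptor of both ligands, was lowest in Tip ECs, where Angpt2 was highest. Of its 2134 UMIs, 97.8% came from ECs. In Tip ECs the Tek level was 138, 171 and 98.9 CPM in the eNOS+/+ libraries and 122, 152 and 133 CPM in the eNOS-/- libraries (136 ± 24.8, SD, n = 6). In Structural ECs it was 292, 283 and 262 CPM in the eNOS+/+ libraries and 350, 307 and 243 CPM in the eNOS-/- libraries (mean 290 ± 37.2, SD, n = 6). In Proliferative ECs it was 256, 256 and 205 CPM in the eNOS+/+ libraries and 302, 336 and 281 CPM in the eNOS-/- libraries (mean 273 ± 44.9, SD, n = 6). Every Tip value lay below every Structural and every Proliferative value. Structural ECs were 1.66-fold to 2.88-fold above Tip ECs and Proliferative ECs 1.50-fold to 2.48-fold above them, in 6 of 6 libraries each. Of the 6264 genes, 9.77% were lower in Tip than in Structural ECs in all libraries and 2.06% without overlap. Against Proliferative ECs these shares were 12.7% and 4.79%. The order was unchanged with cells of at least 500 UMIs and with 1 cell per barcode family. Structural and Proliferative ECs did not differ beyond their spread, with Structural ECs higher in 4 of 6 libraries.

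The share of cells with Tek followed the same order once depth was equal. At full depth a Tek UMI was seen in 15.0% of Tip ECs, 19.7% of Structural ECs, which were sequenced less deeply, and 29.9% of Proliferative ECs, against 1.39% of rods. Drawn to 500 UMIs, the share of cells with Tek was 5.96% in Tip, 13.6% in Structural and 13.1% in Proliferative ECs, and 2.00% in rods. Outside ECs the highest value, 487 CPM in the immune cells of eNOS+/+ replicate 1, was 4 UMIs of a sum under 10000 UMIs. In mural cells Tek had 7 UMIs.

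**Figure D2:**
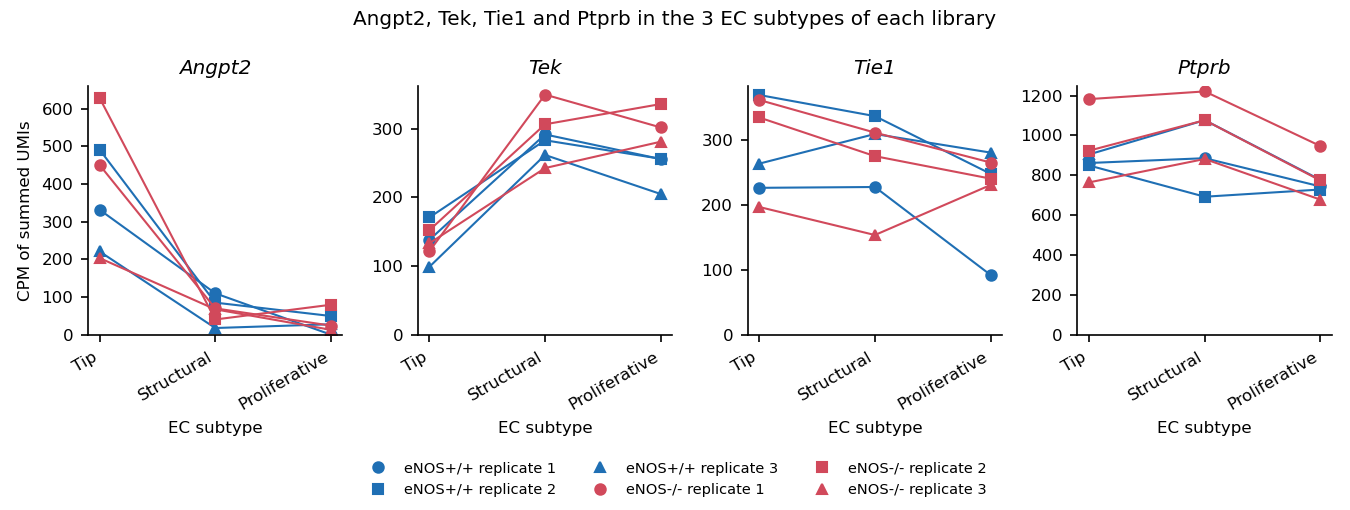
Level of Angpt2, Tek, Tie1 and Ptprb (y axis, CPM of summed UMIs) in Tip, Structural and Proliferative ECs (x axis), with 1 line per library. Every library falls from Tip to Structural ECs for Angpt2 and rises for Tek, while the lines of Tie1 and Ptprb cross.

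Tie1, the partner receptor of Tek, showed no such split between subtypes. Of its 2377 UMIs, 96.6% came from ECs. Its level was 226, 369 and 263 CPM in eNOS+/+ Tip ECs and 361, 334 and 196 CPM in eNOS-/- Tip ECs (291 ± 73.1, SD, n = 6). It was 268 ± 67.8 CPM in Structural and 226 ± 68.0 CPM in Proliferative ECs (SD, n = 6 each). Tip ECs were above Structural ECs in 4 of 6 libraries and above Proliferative ECs in 4 of 6, and the ranges overlapped. The Proliferative ECs of eNOS+/+ replicate 1 were low, at 91.8 CPM from 19 UMIs, against 230 to 280 CPM in the other 5 libraries. Drawn to 500 UMIs, the share of cells with Tie1 was 14.2% in Tip, 13.2% in Structural and 10.5% in Proliferative ECs, and 1.61% in rods. Mural cells had 57.4 ± 46.9 CPM of Tie1 (SD, n = 6), beside their EC marker sum of 1016 to 3798 CPM.

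Ptprb, the phosphatase that acts on Tek, was present in each EC subtype. Of its 8280 UMIs, 96.8% came from ECs. In Tip ECs the Ptprb level was 862, 849 and 905 CPM in the eNOS+/+ libraries and 1183, 924 and 764 CPM in the eNOS-/- libraries (mean 914 ± 143, SD, n = 6). It was 973 ± 189 CPM in Structural and 775 ± 91.7 CPM in Proliferative ECs (SD, n = 6 each). Tip ECs were above Proliferative ECs in 6 of 6 libraries, by 1.13-fold to 1.25-fold, though the ranges overlapped. That order in all 6 libraries was seen for 10.8% of the 6264 genes. Structural ECs were above Tip ECs in 5 of 6 libraries, and in 4 of 6 with 1 cell per barcode family. Drawn to 500 UMIs, the share of cells with Ptprb was 34.0% in Tip, 37.3% in Structural and 32.1% in Proliferative ECs, and 9.49% in rods. Rods held 201 ± 256 CPM of Ptprb (SD, n = 6), beside a UMI of Pecam1, the gene of the CD31 used for enrichment, in 19.6% of rods. Pecam1 was high in rods for an EC marker, at 590 CPM against 1199 CPM in Structural ECs. The sum of the 9 EC markers was 1309 CPM in rods against 7973 CPM in Structural ECs. The part of EC transcripts in the Ptprb counts of rods was not tested.

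Structural ECs held transcripts of other cells. The summed level of 5 red blood cell genes there ran from 34.9 to 22522 CPM in eNOS+/+ libraries and from 4432 to 7366 CPM in eNOS-/- libraries, and was at most 399.7 CPM in Tip ECs. The sum of the 10 mural markers was 3961 CPM in the Structural ECs of eNOS-/- replicate 3 and 33.2 to 85.7 CPM in those of the other libraries. Tek in the Structural ECs of eNOS-/- replicate 3 was the lowest of the 6, at 243 CPM, and still above the Tip value of each library. The part of these transcripts in the order of the subtypes was not tested.

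In Tip and Structural ECs, cells that held an Angpt2 UMI had less Tek. This split was not planned, and both genes took part in the clustering, so it is a description. Among Tip ECs of at least 500 UMIs, the Tek level in the 332 cells with Angpt2 was 19.8, 162 and 44.4 CPM in the eNOS+/+ libraries and 66.6, 86.1 and 60.8 CPM in the eNOS-/- libraries. In the 759 Tip ECs without Angpt2 it was 249, 188 and 120 CPM in eNOS+/+ and 152, 208 and 178 CPM in eNOS-/-. Tek was lower in cells with Angpt2 in 6 of 6 libraries, with means of 73.3 ± 48.9 and 182 ± 44.7 CPM (SD, n = 6). The difference was smallest in eNOS+/+ replicate 2. Cells with Angpt2 were deeper, with a median of 2053 UMIs against 1192. Drawn to 500 UMIs, 2.79% of Tip ECs with Angpt2 and 7.34% of those without had a Tek UMI, again lower in 6 of 6 libraries.

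Ptprb moved with Tek in this split, while Tie1 did so in Structural but not in Tip ECs. In Tip ECs the Ptprb level was 745 ± 143 CPM in cells with Angpt2 and 1041 ± 137 CPM in cells without (SD, n = 6), lower in 6 of 6 libraries, and its share of cells drawn to 500 UMIs was lower in 5 of 6. Tie1 was at 309 ± 74.0 and 285 ± 84.6 CPM, lower in 2 of 6. Of the 2160 other genes with at least 200 UMIs in these cells, 4.44% were lower in cells with Angpt2 in all 6 libraries and 5.19% were higher. With cells of at least 1000 UMIs, Tek was at 77.8 ± 54.2 and 196 ± 56.7 CPM and lower in 6 of 6 libraries. In Structural ECs all 3 genes were lower in cells with Angpt2 in 6 of 6 libraries, as were 5.89% of 3463 genes. There Tek was at 104 ± 80.1 and 326 ± 42.3 CPM, Tie1 at 142 ± 86.7 and 285 ± 66.1 CPM, and Ptprb at 640 ± 330 and 1017 ± 176 CPM (SD, n = 6). These values rest on 87 Structural ECs with Angpt2, of which 22 held Tek, and the share of cells with Ptprb drawn to 500 UMIs was lower in 4 of 6 libraries. The Structural ECs with Angpt2 were deeper, with a median of 3257 UMIs against 1299. In eNOS-/- replicate 3 they were 6 cells, and none held Tek. With at least 1000 UMIs, Tie1 was lower in 5 of 6 libraries. In Proliferative ECs, where 5 libraries had cells with Angpt2, Tek was lower in 3 of 5 (215 ± 124 against 286 ± 57.6 CPM), Ptprb in 3 of 5 and Tie1 in 2 of 5.

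**Figure D3:**
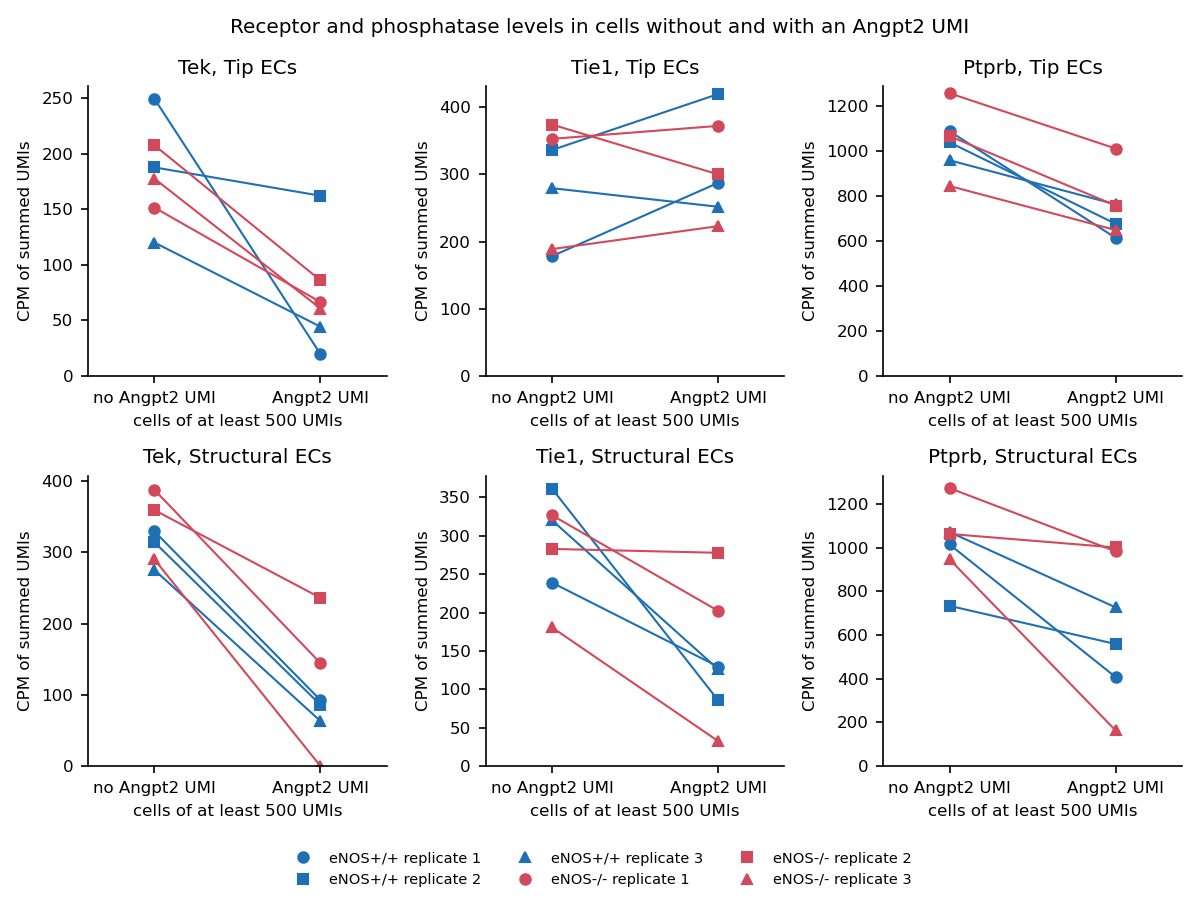
Level of Tek, Tie1 and Ptprb (y axis, CPM of summed UMIs) in Tip ECs (top) and Structural ECs (bottom) of at least 500 UMIs without and with an Angpt2 UMI (x axis), with 1 line per library. Tek falls in 6 of 6 libraries in both subtypes, and Tie1 in Tip ECs falls in 2 of 6.

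The EC identity genes compared were not lower as a group in Tip ECs with Angpt2. Cdh5 and Kdr, which are also on the pathway list, were left out of this comparison, and not for low counts. Of the other 7 EC markers, 3 were higher in 6 of 6 libraries and 1 was lower. Pecam1 was at 2002 ± 335 CPM with and 1532 ± 277 CPM without Angpt2, Flt1, a VEGF receptor, at 2067 ± 412 and 1756 ± 356 CPM, and Erg, an ETS factor of ECs, at 397 ± 57.2 and 328 ± 56.9 CPM. With at least 1000 UMIs, Flt1 and Erg were each higher in 5 of 6 libraries. Cldn5, the claudin of the blood-retina barrier, was lower in 6 of 6 libraries, at 1404 ± 407 CPM with and 1686 ± 606 CPM without. Of 15 other genes of the pathway with enough UMIs, again without Cdh5 and Kdr, 2 were higher in 6 of 6 libraries and none was lower. Mmp14, a membrane protease reported to cut Tek, was at 293 ± 32.9 CPM with and 166 ± 49.5 CPM without Angpt2. Itgb1, the integrin β1 subunit, was at 1805 ± 365 and 1536 ± 268 CPM. Foxo1, a transcription factor that the Tek pathway holds in check and that drives Angpt2, was at 123 ± 32.2 and 85.0 ± 37.2 CPM, higher in 5 of 6.

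The wider pathway was followed through 49 genes in 6 role groups, of which 46 were in the table and 29 had at least 200 EC UMIs. In Tip against Structural ECs, 4 of the 29 were higher in all 6 libraries and none was lower, where 8.57% of the 6264 genes were higher and 9.77% lower in all 6, with a median ratio of 1.08 beside 0.956 over all 6264 genes. Mmp14 was at 220 ± 31.1 CPM in Tip and 101 ± 24.8 CPM in Structural ECs (SD, n = 6), with no overlap. Itgb1 was at 1624 ± 271 and 1170 ± 84.6 CPM. The other 2, chosen after their values were seen, were Ctnnd1 (p120-catenin, a junction protein) at 118 ± 24.5 and 82.6 ± 17.8 CPM and Kdr (VEGFR2) at 979 ± 164 and 795 ± 78.8 CPM. None of the 11 adaptors and kinases below Tek kept 1 order in all libraries. Akt1 was at 73.8 ± 40.3 CPM in Tip and 57.9 ± 10.2 CPM in Structural ECs, and Foxo1 at 98.1 ± 23.3 and 82.9 ± 25.5 CPM, both higher in 4 of 6 libraries.

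**Figure D4:**
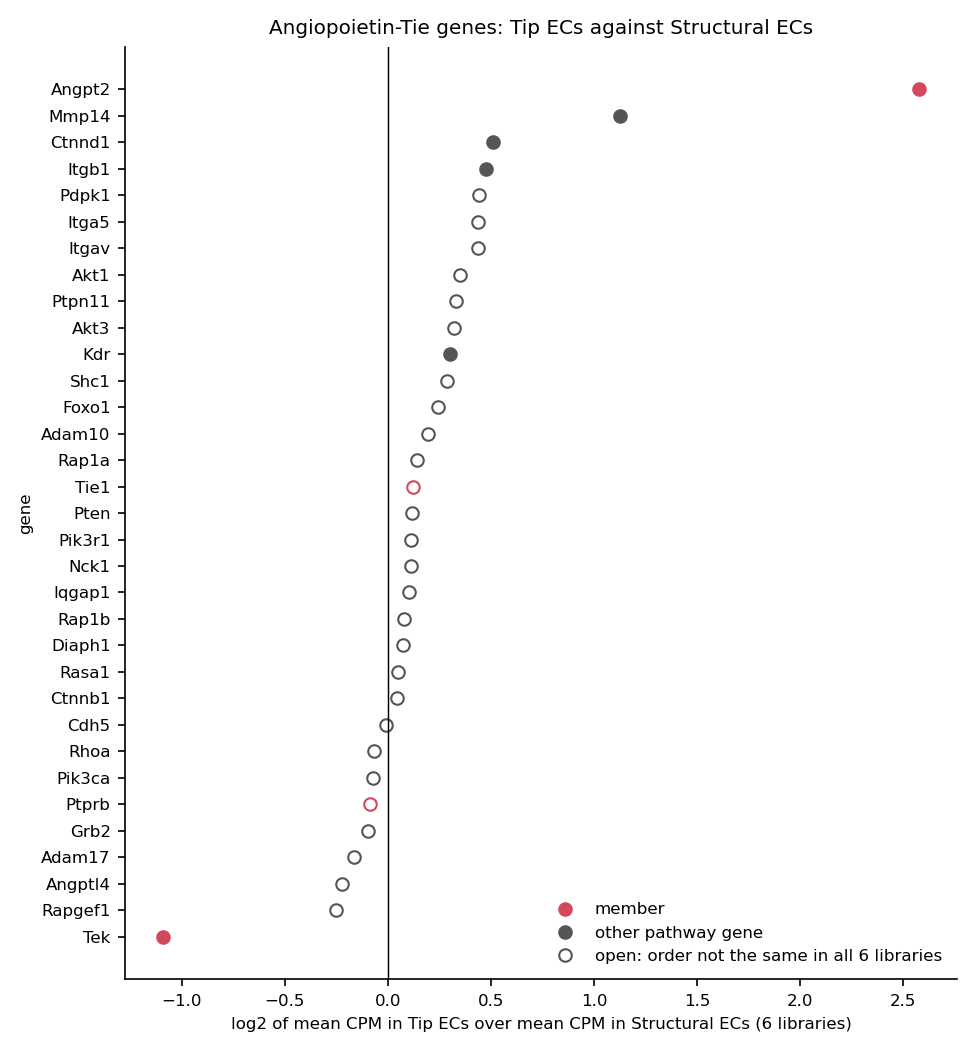
Ratio of the mean level in Tip ECs to that in Structural ECs (x axis, log2 of mean CPM over 6 libraries) for 4 members (red) and 29 other pathway genes (grey), 1 per row (y axis). Points are filled where the order is the same in 6 of 6 libraries. Angpt2 lies farthest to the right and Tek farthest to the left, and 4 other genes are filled.

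The genes whose pattern over the 10 cell types was most like that of each member were found by Pearson's r of log2(CPM + 10), over 10 types and 6621 genes, and are given as a description. The types share libraries, and no test was made. For Angpt2 they were Adora2a (adenosine A2a receptor, r = 0.964), Sec63 (0.945), Mcam (CD146, 0.940), Raph1 (0.930) and Gnb4 (0.928). For Tek they were Slc38a5 (0.988), Slc35f2 (0.971), Slc7a1 (0.969), Abcb1a (0.956) and Sema3g (0.955). For Tie1 they were Tmem252 (0.981), Cd34 (0.981), Myct1 (0.979), Rasip1 (0.978) and Igfbp3 (0.975). For Ptprb they were Jcad (0.984), Ushbp1 (0.981), Tspan18 (0.975), Fgd5 (0.974) and Slco1c1 (0.971). For Angpt1, whose 21 UMIs are below the limit of 200 set for the other genes, they were Ndufa4l2 (0.969), S1pr3 (0.959), Tagln (0.918), Igfbp5 (0.913) and Tpm2 (0.896). Among the members, Tie1 and Ptprb were the most alike (0.954) and Angpt2 and Tek were at 0.427.

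Loss of eNOS was not accompanied by a called change in any member. The comparison asked whether the receptor system of ECs differed between eNOS-/- and eNOS+/+ retinas under OIR. UMIs were summed per library and tested with edgeR's quasi-likelihood test, with a Benjamini-Hochberg adjusted p limit of 0.05, so p-values measure the spread between pools of retinas. None of 4 members tested was called in Tip ECs, where 0.0181% of 5510 genes were called, none of 4 in Structural ECs (0.0264% of 7577), none of 3 in Proliferative ECs (0.0217% of 4607) and none of 4 in all ECs (0.0211% of 9483). At an unadjusted p under 0.05 there were 273, 418, 294 and 548 genes. The few genes called, AI506816 (lower in eNOS-/- in each EC sum) and Igkc (higher in Structural and in all ECs), are outside the pathway and were named after their values were seen. Without eNOS-/- replicate 3 the number of genes called was 25, 28, 73 and 78 in these 4 sums, and no member was among them.

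The mean Angpt2 level in Tip ECs was 348 ± 136 CPM in the eNOS+/+ libraries and 428 ± 214 CPM in the eNOS-/- libraries (SD, n = 3). On the log2 scale eNOS-/- was higher by 0.39, with a standard error of 0.32 (edgeR adjusted p = 0.985). It was 0.0103 without eNOS-/- replicate 2, 0.15 without eNOS+/+ replicate 3, and it rose to 0.70 when eNOS+/+ replicate 2 was left out and to 0.68 when eNOS-/- replicate 3 was. The Angpt2 fold change in Structural ECs was -0.19 on the log2 scale (standard error 0.49), and it turned to 0.44 without eNOS+/+ replicate 1 and to 0.04 without eNOS-/- replicate 2. In all ECs it was 0.21 (standard error 0.31), -0.16 without eNOS-/- replicate 2 and -0.06 without eNOS+/+ replicate 3. The genotypes overlapped in each case, and the size of the Angpt2 difference in Tip ECs, and its sign in Structural and in all ECs, rested on single libraries. Angpt2 had too few UMIs in Proliferative ECs to be tested.

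No receptor was called between genotypes. Tek had log2 fold changes of 0.06 in Tip, 0.10 in Structural and 0.40 in Proliferative ECs, with standard errors of 0.29, 0.22 and 0.24 and an adjusted p of 0.864 in the last (edgeR). In Proliferative ECs the 3 eNOS-/- values of Tek (281 to 336 CPM) lay above the 3 eNOS+/+ values (205 to 256 CPM), and groups that did not overlap were found for 10.8% of the genes tested there. Tie1 had log2 fold changes of 0.12 in Tip, -0.22 in Structural and 0.26 in Proliferative ECs (standard errors 0.27, 0.26 and 0.30). Ptprb had 0.14, 0.24 and 0.13 (standard errors 0.24, 0.24 and 0.22), and eNOS-/- replicate 1 was the highest library in each EC subtype. The smallest adjusted p of any member in any EC sum was 0.864 with edgeR, and no member was called by DESeq2 either.

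**Figure D5:**
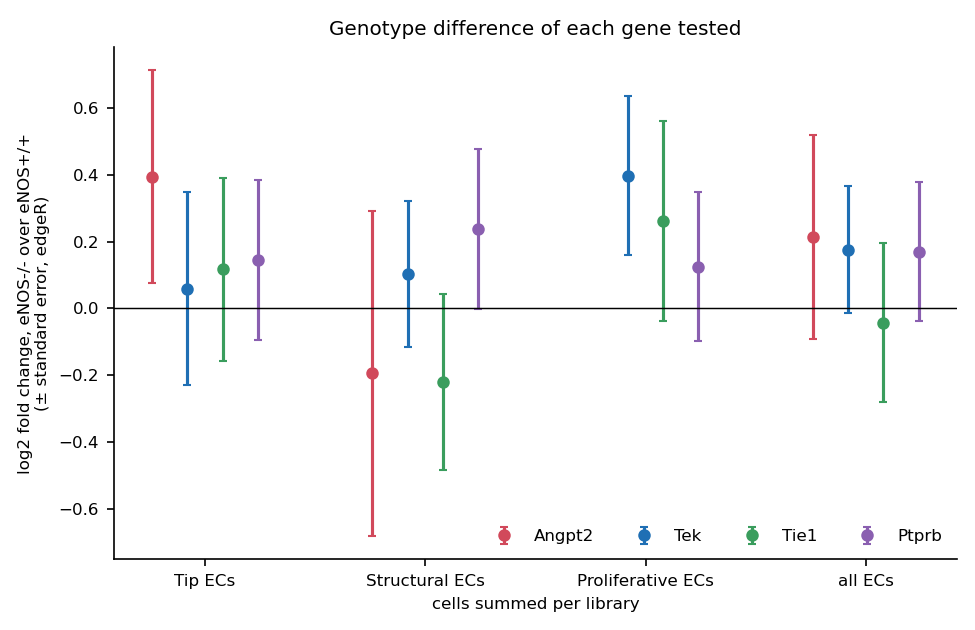
Difference between genotypes (y axis, log2 fold change of eNOS-/- over eNOS+/+ from edgeR, 3 libraries each, bars are standard errors) of Angpt2, Tek, Tie1 and Ptprb in Tip, Structural, Proliferative and all ECs (x axis). Angpt2 in Proliferative ECs was not tested, and no difference passed the adjusted limit of 0.05.

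In mural cells none of the 5 members passed the filter on low counts, so none was tested there. Of 1059 genes tested, 0 were called by edgeR or by DESeq2 (0%), and 51 had an unadjusted p under 0.05. Tie1 in mural cells was 0, 0 and 69.4 CPM in eNOS+/+ (2 UMIs in all) and 92.3, 110 and 72.5 CPM in eNOS-/- (23 UMIs). These groups did not overlap, nor did those of Angpt1. Of the genes tested in mural cells, 11.2% had groups that did not overlap. That share is over genes that passed the filter on low counts, which Tie1 and Angpt1 did not, so it is no measure for counts as low as theirs. A count of 0 allows up to 265 CPM in the 3 cells of eNOS+/+ replicate 1 and 149 CPM in eNOS+/+ replicate 2, above each eNOS-/- value.

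The balance between members within a library, which does not depend on its scaling, was also tested. It can still depend on the library's mix of EC subtypes, since among ECs Angpt2 was highest and Tek lowest in Tip ECs. The ratio of Angpt2 to Tek UMIs in all ECs was 0.580, 0.780 and 0.410 in the eNOS+/+ libraries and 0.485, 0.833 and 0.453 in the eNOS-/- libraries. The log2 ratio differed by -0.01 between genotypes (two-sided exact permutation p = 1). The log2 ratio of Tie1 to Tek differed by -0.22 (exact permutation p = 0.5) and that of Ptprb to Tek by 0.01 (exact permutation p = 1), and all 3 adjusted values were 1. With 3 libraries against 3 the smallest p is 0.1. The ratios overlapped between genotypes in all ECs, and replicate 2 had the highest Angpt2 to Tek ratio in each.

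The shares of Tip ECs with Angpt2 overlapped between genotypes. Drawn to 500 UMIs, 15.2%, 17.1% and 8.43% of Tip ECs had an Angpt2 UMI in the eNOS+/+ libraries and 13.8%, 18.7% and 9.93% in the eNOS-/- libraries. The means differed by 0.541 percentage points (two-sided exact permutation p = 0.8). At full depth the shares were 35.2%, 29.0% and 19.0% in eNOS+/+ and 22.3%, 28.9% and 29.9% in eNOS-/-, and the difference changed sign to -0.701 percentage points.

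Whether the genotype difference depended on the EC subtype was tested in 1 model of 18 sums with library and subtype terms. None of 4 members, and 0 of 7019 genes (0%), had an adjusted p under 0.05 (edgeR), and 241 had an unadjusted p under 0.05. For Angpt2 the genotype difference in Tip ECs exceeded that in Structural ECs by 0.60 on the log2 scale (standard error 0.47). For Tie1 it exceeded it by 0.37 (standard error 0.24), for Tek it was lower by a log2 difference of -0.04 (standard error 0.26), and for Ptprb by -0.09 (standard error 0.16). The adjusted p of the test of both interaction terms was 1.000 for each of the 4 members (edgeR, rounded).

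None of the other pathway genes was called between genotypes either. In all ECs 38 of 49 were tested, with a median log2 fold change of -0.05 beside 0.01 over all 9483 genes. The sheddase Mmp14 was at 153 ± 9.56 CPM in the eNOS+/+ libraries and 117 ± 26.1 CPM in the eNOS-/- libraries (SD, n = 3), or -0.42 on the log2 scale with a standard error of 0.21 (edgeR adjusted p = 0.877). Adam17 and Adam10, 2 further proteases, had log2 fold changes of -0.21 and -0.13. Among the kinases below Tek, Akt1 had the smallest p, at 76.0 ± 10.8 CPM in the eNOS+/+ libraries and 54.6 ± 10.6 CPM in the eNOS-/- libraries (SD, n = 3), or -0.49 on the log2 scale with a standard error of 0.24 (edgeR adjusted p = 0.877), and Pdpk1 and Nck2 had 0.29 and 0.39. The Foxo factors Foxo1, Foxo3 and Foxo4 had log2 fold changes of -0.16, -0.28 and -0.04. The integrins Itga5, Itgb1 and Itgb3 had -0.34, 0.07 and -0.03, the junction partners Rap1b, Rapgef1 and Rap1a had -0.37, -0.25 and -0.13, and Angptl4, the only angiopoietin-like gene tested, had -0.05. In Tip, Structural and Proliferative ECs 30, 34 and 23 pathway genes were tested, and in mural cells 9, with none called in either direction.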

How the data were processed

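The authors prepared Drop-seq libraries, aligned reads to GRCm38 with kb-python and deposited UMI counts per gene and cell with a table of cell types made in Seurat. Per their methods, cells with few genes or many mitochondrial transcripts and contaminant clusters had been removed, and the treatment of doublets is not given in the sources used here. UMI counts were summed per library and deposited cell type and divided by the sum's total for CPM. Genotypes were compared with edgeR 4.0.16 (filterByExpr, TMM, quasi-likelihood test, Benjamini-Hochberg over all genes tested) in R 4.3.3, checked on simulated data, with DESeq2 1.42.0 as an alternative. Levels over cell types carry no test. Shares after drawing down are expectations over draws without replacement. The 5 members and the gene lists were chosen with earlier results of these data known. Named genes were the members, Nos3, the 3 pathway genes of smallest p in all ECs per role group, any pathway gene called, 5 genes most like each member, and cell type markers. Coordinates are from GENCODE vM21. Per-cell columns of clustering and quality values (12) were not used.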

Additional observations from a re-analysis of the deposited data

Results flagged for a closer look

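In 13 of 46 groups of 4 to 6 libraries with counts, 1 library stood far from the rest by Dixon's gap test at the 95% level. Chance meets this limit in about 1 group in 20 of continuous values, a rate that does not hold for groups that are mostly at 0. In 8 of the 13 the other libraries were all at 0, so that any UMI meets the limit, and the number 13 is read against no chance rate. Of the 13, 11 were a few UMIs in 1 eNOS-/- library where most others had none. Angpt1 was at 3.74 CPM in the Structural ECs and 2.05 CPM in all ECs of eNOS-/- replicate 3, at 104 CPM in the neuroglia of replicate 1, and at 21.2 CPM in the immune cells and 5.53 CPM in the neurons of replicate 2. Angpt2 was at 66.7 CPM in the neuroglia and 21.2 CPM in the immune cells of eNOS-/- replicate 2 and at 31.1 CPM in the Optc+ cells of replicate 1. Tek was at 33.3 CPM in the neuroglia and 13.8 CPM in the neurons of eNOS-/- replicate 2 and at 93.2 CPM in the Optc+ cells of replicate 1.

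The other 2 were in Proliferative ECs. Tie1 was lowest in eNOS+/+ replicate 1, at 91.8 CPM from 19 UMIs, where the others ran from 230 to 280 CPM. Ptprb was highest in eNOS-/- replicate 1, at 947 CPM from 633 UMIs, where the others ran from 678 to 777 CPM.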

How the results depend on the processing

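No member was called between genotypes under any alternative (smallest adjusted p 0.474, edgeR or DESeq2). Of 165 alternative values of the members' log2 fold changes, 15 changed sign, all by leaving out 1 library. With 1 library left out, the log2 fold change ran from 0.0103 to 0.70 for Angpt2, -0.14 to 0.23 for Tek, -0.0212 to 0.30 for Tie1 and -0.0266 to 0.27 for Ptprb in Tip ECs, from -0.77 to 0.44 for Angpt2 and -0.0137 to 0.20 for Tek in Structural ECs, from -0.0810 to 0.56 for Tie1 and -0.0304 to 0.21 for Ptprb in Proliferative ECs, and from -0.16 to 0.49 for Angpt2 and -0.21 to 0.14 for Tie1 in all ECs. The genes called ran from 0 to 25 in Tip, 0 to 28 in Structural, 0 to 73 in Proliferative and 0 to 78 in all ECs, each highest without eNOS-/- replicate 3. The log2 ratio difference ran from -0.28 to 0.22 for Angpt2 over Tek, from -0.49 to -0.0583 for Tie1 over Tek and from -0.13 to 0.19 for Ptprb over Tek, and the difference in the share of Tip ECs with Angpt2 from -2.05 to 2.65 percentage points. Without the low-count filter 8, 74, 10, 84 and 3 genes were called in Tip, Structural, Proliferative, all ECs and mural cells. With cells of at least 500 UMIs 2, 0 and 1 were called in Tip, Structural and all ECs, and DESeq2 called 2 in Tip ECs. The ratio differences changed sign to 0.0575 (Angpt2 over Tek) and -0.0484 (Ptprb over Tek) with cells of at least 500 UMIs, to 0.20 (Angpt2 over Tek) and 0.0112 (Tie1 over Tek) in Tip ECs alone, and to 0.0384 (Tie1 over Tek) and -0.28 (Ptprb over Tek) in Proliferative ECs alone, where a library without Angpt2 left no ratio to Tek. The share difference was -0.701 percentage points without drawing down. The cause of these shifts was not tested. Same-numbered libraries share only a number (correlations of their deviations 0.13, -0.07 and 0.12), and with the replicate block 1, 11, 3 and 2 genes were called in Tip, Structural, Proliferative and all ECs. Depth limits each member in mural cells, and Angpt1 had too few UMIs to be tested between genotypes in any sum. In all ECs its pooled level was 0.243 CPM, from 2 of 8233487 UMIs, against 35.0 CPM in mural cells.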
